A study of Homo sapiens with 12 samples.

Results

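Alpha- and beta-tubulin are encoded by families of closely related genes, and the data on 10 of them are described here: the alpha genes TUBA1A, TUBA1B, TUBA1C and TUBA4A and the beta genes TUBB, TUBB2A, TUBB2B, TUBB3, TUBB4B and TUBB6. They were taken by symbol, as members of the family, from 43481 genes of the deposited tables, and all 10 passed the filter on low counts. The measurements come from poly-A RNA of RPE-1, an immortalised human line derived from the pigment epithelium of the retina, in 12 libraries of 4 groups with 3 libraries each. All cells were first deprived of glucose and of fetal calf serum (FCS), for 24 h. Then 3 groups were refed for 4 h with 10% FCS and 5 g/l glucose. The DMA group received 100 µM of dimethyl amiloride (spelled Amiliride in the labels), an inhibitor of sodium-proton exchange, during refeeding. The C646 group received 10 µM of C646, an inhibitor of the acetyltransferases p300 and CBP. The solvent group received DMSO, and the starved group was not refed. The study's title names cell cycle progression that depends on pH. The labels give no separate cultures for the libraries of a group, so every p-value below measures the spread between these samples, which may be technical.

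Microtubules are hollow polymers of alpha- and beta-tubulin heterodimers that carry transport in the resting cell and build the spindle in mitosis. New tubulin chains are folded by the chaperonin CCT and by tubulin cofactors, which join 1 alpha and 1 beta chain into a dimer. The level of free dimer feeds back on tubulin mRNA: the protein TTC5 recognises the first residues of a nascent tubulin chain on the ribosome and, with SCAPER and the CNOT11 subunit of CCR4-NOT, triggers decay of the message being translated.

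The starts of the coding sequences of TUBA4A and the beta genes are shown because they carry the codons for the first residues of the chains. The first 48 coding bases are printed for the principal transcripts of these 7 genes in GENCODE 29 on GRCh38, 5' to 3', with the first 4 codons in capitals.
TUBA4A-201: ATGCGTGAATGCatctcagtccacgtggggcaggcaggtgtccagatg
TUBB-205: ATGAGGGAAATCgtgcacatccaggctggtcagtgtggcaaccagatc
TUBB2A-201: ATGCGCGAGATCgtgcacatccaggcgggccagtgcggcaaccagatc
TUBB2B-201: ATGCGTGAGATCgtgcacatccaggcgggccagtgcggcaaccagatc
TUBB3-201: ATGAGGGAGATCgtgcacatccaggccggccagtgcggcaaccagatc
TUBB4B-201: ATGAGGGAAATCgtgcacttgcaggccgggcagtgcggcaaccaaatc
TUBB6-201: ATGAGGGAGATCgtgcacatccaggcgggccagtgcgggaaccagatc
TUBA4A and the beta genes each had a sequence of their own over these bases.

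The likeness within the family limits how reads can be assigned to 1 gene. Over the whole coding sequence, TUBA1A and TUBA1B were 97.2% identical, TUBA1B and TUBA1C 96.8% and TUBA1A and TUBA1C 95.9%, while TUBA4A was 84.4% to 85.7% identical to the other alpha genes. TUBB2A and TUBB2B were 98.1% identical, and all other beta pairs were 81.0% to 87.7% identical. Of the 31-base sequences in the transcripts of TUBB2A, 57.8% also occurred in another gene. The share was 46.1% for TUBB2B, 36.0% for TUBB3, 28.8% for TUBA1B, 28.6% for TUBA1A and 22.8% for TUBA1C. It was 12.3% for TUBB4B, 5.59% for TUBA4A, 3.17% for TUBB and 2.68% for TUBB6, so these 4 genes are the most separable by sequence. The values of TUBA1A, TUBA1B, TUBA1C, TUBB2A, TUBB2B and TUBB3 are uncertain in this sense.

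**Figure D1:**
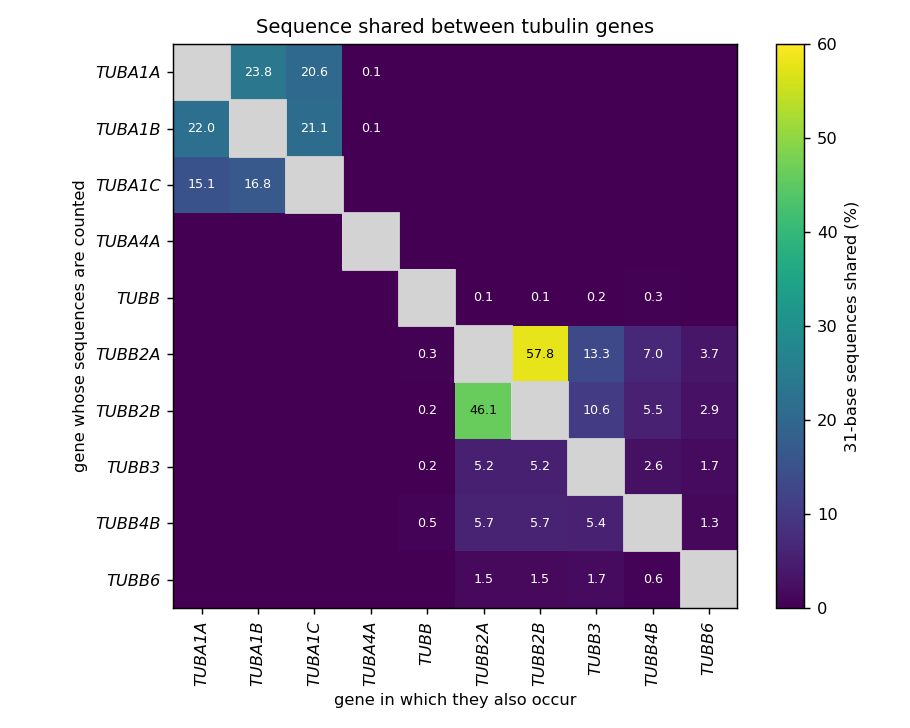
Percentage of the 31-base sequences in the transcripts of the gene named on each row that also occur in the gene named on each column, for the 10 tubulin genes. The alpha genes share sequence among TUBA1A, TUBA1B and TUBA1C, and the largest shares are 57.8% for TUBB2A in TUBB2B and 46.1% for TUBB2B in TUBB2A.

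By position on GRCh38, TUBA1A (chr12:49184796-49189324), TUBA1B (chr12:49127782-49131397) and TUBA1C (chr12:49188736-49274603) lie in 1 region of chromosome 12, with TUBA1C on the plus strand and the others on the minus strand. TUBB2A (chr6:3153669-3157526) and TUBB2B (chr6:3224261-3231730) neighbour each other on the minus strand of chromosome 6, and TUBB (chr6:30720201-30725426, plus strand) lies on the same chromosome. The remaining genes stand alone: TUBA4A at chr2:219249711-219278170 on the minus strand, and on the plus strand TUBB3 at chr16:89921392-89938761, TUBB4B at chr9:137241213-137243707 and TUBB6 at chr18:12307669-12344320. Exons of TUBA1B overlapped AC011603.2 on the opposite strand over 36.6% of their bases, TUBB3 exons overlapped AC092143.1 on the same strand over 35.8%, and TUBB6 exons overlapped AFG3L2 on the opposite strand over 20.3%. TUBA1C exons overlapped AC125611.3 and TUBA1A, both on the opposite strand, over 25.0%. Exons of TUBA1A in turn overlapped TUBA1C over 14.3%. The strand setting of the counting is not given in the sources used here, so reads of opposite-strand partners may be mixed.

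The libraries held 14910516 to 28968510 expected counts, and a limit of 3 counts corresponded to 0.105 to 0.214 CPM (counts-per-million, here scaled by the trimmed mean of M-values, TMM), for counting error only. All members stood above that limit in every library. Spike-in control sequences took 0.527% to 1.28% of the counts and mitochondrial transcripts 1.67% to 4.14%. Keratins of simple epithelia (KRT7, KRT8 and KRT18) summed to 618 to 1285 CPM. The 6 markers of retinal pigment epithelium summed to only 3.08 to 6.65 CPM, and TYR was at 0 in all refed libraries, so the labelled origin is not visible in its defining markers. Neuronal markers summed to 2.15 to 5.42 CPM, with STMN2 at 0 in every library, and PTPRC of blood cells measured 0.0425 to 0.628 CPM. In such bulk samples, a change in the share of cells of a type and a change in RNA per cell cannot be told apart.

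Refeeding with solvent, set against starvation, gave higher levels of most tubulin mRNAs but not of TUBB and TUBB3. All 3 TUBA1 genes, TUBA4A, TUBB2A, TUBB4B and TUBB6 were higher in solvent than in starved cells, 7 of 10 genes, and none was lower past the threshold (adjusted p under 0.05). Across all 15263 genes tested, 24.3% passed, with 12.6% of the genes tested higher and 11.7% lower. The median log2 fold change of the 10 genes was 0.84, beside 0.00 over all genes. In 8 of the 10 genes, and in 40.0% of all genes, the solvent and starved libraries did not overlap. The fold changes of the 7 genes ran from 1.67 for TUBA1C to 2.63 for TUBB2A. With starved library 2 left out the count was 4, where 2269 of 15577 genes passed. It was 4 too with solvent library 1 left out, where 2725 of 15647 genes passed. TUBA1B, TUBA4A, TUBB2A and TUBB6 passed in all 6 fits that left out 1 library.

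**Figure D2:**
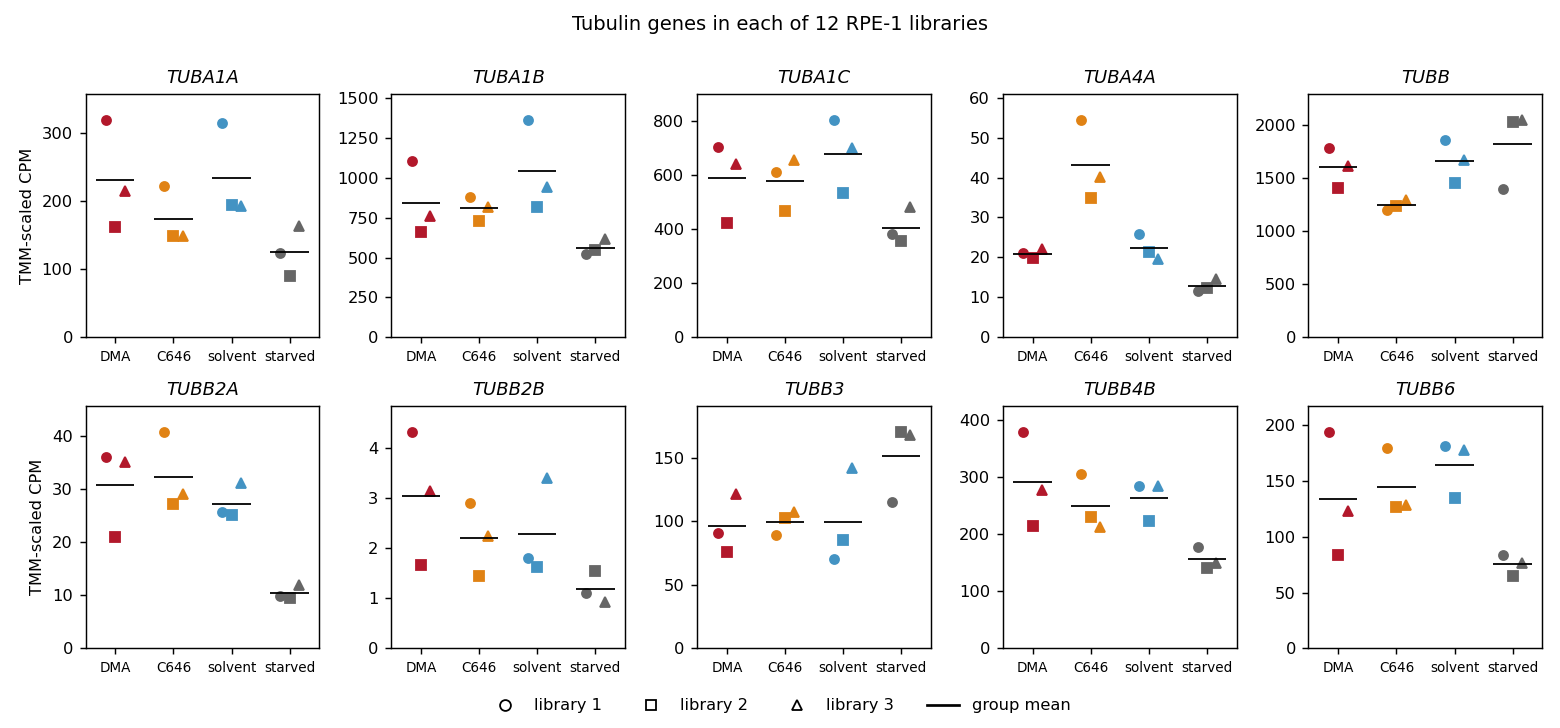
TMM-scaled CPM (vertical axes, each from 0) of the 10 tubulin genes in each library, by group, with symbols for library numbers 1, 2 and 3 and a bar at the group mean (n = 3). Solvent libraries sit above starved libraries for the TUBA1 genes, TUBA4A, TUBB2A, TUBB4B and TUBB6, the C646 libraries sit highest for TUBA4A at 34.96 to 54.3 CPM, and TUBB is lowest in C646 libraries at 1197 to 1296 CPM.

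Among the alpha genes, TUBA1B, the main alpha-tubulin of most cell types, measured 1362, 816 and 944 CPM in solvent libraries 1, 2 and 3 and 523, 545 and 617 CPM in starved libraries. Every solvent library lay above every starved one, and solvent library 1 was the highest of all. On the log2 scale the difference was 0.89 ± 0.20 (SE) with an adjusted p of 0.0072.

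TUBA1C measured 804, 536 and 700.1 CPM in solvent libraries and 381, 355 and 484 CPM in starved libraries. The groups did not overlap, though solvent library 2 and starved library 3 came close. This gave a log2 fold change of 0.74 ± 0.21 (SE; adjusted p = 0.0204). Leaving out starved library 1 gave 0.70 (adjusted p = 0.0725), leaving out starved library 2 0.65 (adjusted p = 0.0879), without solvent library 1 0.61 (adjusted p = 0.0843) and without solvent library 3 0.72 (adjusted p = 0.0516).

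TUBA1A, the alpha-tubulin that is abundant in developing neurons, measured 315, 194 and 192 CPM in solvent libraries and 123, 90.3 and 163 CPM in starved libraries. Again the groups stood apart, with solvent library 1 far above the others. The fitted log2 fold change was 0.90 ± 0.29 (SE; adjusted p = 0.0401). It was 0.89 without starved library 1 (adjusted p = 0.0999), 0.71 without starved library 2 (adjusted p = 0.15) and 0.62 without solvent library 1 (adjusted p = 0.169). With no filter on low counts it was 0.92 (adjusted p = 0.16).

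TUBA4A, the alpha-tubulin whose gene ends without the codon for the last tyrosine found in most alpha chains, measured 25.9, 21.3 and 19.5 CPM in solvent libraries and 11.7, 12.4 and 14.5 CPM in starved libraries. The 2 groups did not overlap, and the libraries of each lay close together. Its log2 fold change was 0.79 ± 0.18 (SE; adjusted p = 0.0060), and it held in all fits that left out 1 library.

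Among the beta genes, TUBB2A changed the most. It measured 25.8, 25.1 and 31.1 CPM in solvent libraries and 9.82, 9.42 and 12.05 CPM in starved libraries. Even the lowest solvent library lay above the highest starved one by more than the spread within either group. The estimated log2 change was 1.39 ± 0.22 (SE; adjusted p = 0.00074), and 1.29 to 1.51 when each library was left out in turn.

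TUBB6, a beta-tubulin of many non-neuronal tissues, measured 182, 135 and 178 CPM in solvent libraries and 83.7, 65.1 and 76.9 CPM in starved libraries. The groups did not overlap. The log2 fold change was 1.13 ± 0.26 (SE; adjusted p = 0.0072), with calls in all fits that left out 1 library.

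TUBB4B, a broadly expressed beta-tubulin also known for its place in cilia, measured 284, 222 and 283 CPM in solvent libraries and 178, 141 and 149 CPM in starved libraries. All solvent libraries were higher. On the log2 scale the difference was 0.76 ± 0.20 (SE; adjusted p = 0.0148), and it was 0.69 without starved library 2 (adjusted p = 0.0662) and 0.70 without solvent library 1 (adjusted p = 0.0521).

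TUBB, the most abundant beta-tubulin mRNA of these cells, measured 1861, 1451 and 1664 CPM in solvent libraries and 1397, 2026 and 2043 CPM in starved libraries. The groups overlapped, since starved library 1 lay below all solvent libraries and the other starved libraries above them. This gave a log2 fold change of -0.14 ± 0.15 (SE; adjusted p = 0.561), with a 95% interval of -0.46 to 0.19. That interval ends below the log2 fold changes of all 7 genes above.

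TUBB3, the beta-tubulin used as a marker of neurons and also found in many cultured lines, measured 70.6, 84.9 and 142 CPM in solvent libraries and 116, 171 and 168 CPM in starved libraries. Solvent library 3 lay inside the starved range and the other solvent libraries below it. The fitted log2 fold change was -0.61 ± 0.25 (SE; adjusted p = 0.093), with a 95% interval of -1.15 to -0.07. Without solvent library 3 it was -0.96 (adjusted p = 0.00899). With the library number as a block it was -0.65 (adjusted p = 0.0097) and passed as lower, where 5451 of all 15263 genes passed. The counts of AC092143.1, the gene that overlaps TUBB3 on the same strand, were not used here.

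TUBB2B was the lowest, at 1.79, 1.63 and 3.40 CPM in solvent libraries and 1.10, 1.55 and 0.927 CPM in starved libraries. The ranges did not overlap, but solvent library 2 and starved library 2 nearly touched. The estimated log2 change was 0.91 ± 0.43 (SE; adjusted p = 0.144). All of its counts were assigned to the non-coding transcript TUBB2B-202, and the coding transcript TUBB2B-201 was listed at 0 in all 12 libraries. The values of TUBB2B are therefore no measure of its coding mRNA.

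These directions are relative to the bulk of the mRNA. Scaling to the spike-in controls, which the labels leave undescribed, moved the median of all genes to 0.60 on the log2 scale for solvent over starved. With that scaling, 3227 of 3416 genes called were higher in solvent cells, beside 1921 of 3704 with TMM. The log2 fold change was then 0.38 for TUBB (adjusted p = 0.434) and -0.01 for TUBB3 (adjusted p = 0.979), while all 7 genes remained called, and TUBB2B with them at 1.503 (adjusted p = 0.0351). The values of TUBB and TUBB3 lay below the shifted median of all genes, a difference that was not tested.

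**Figure D3:**
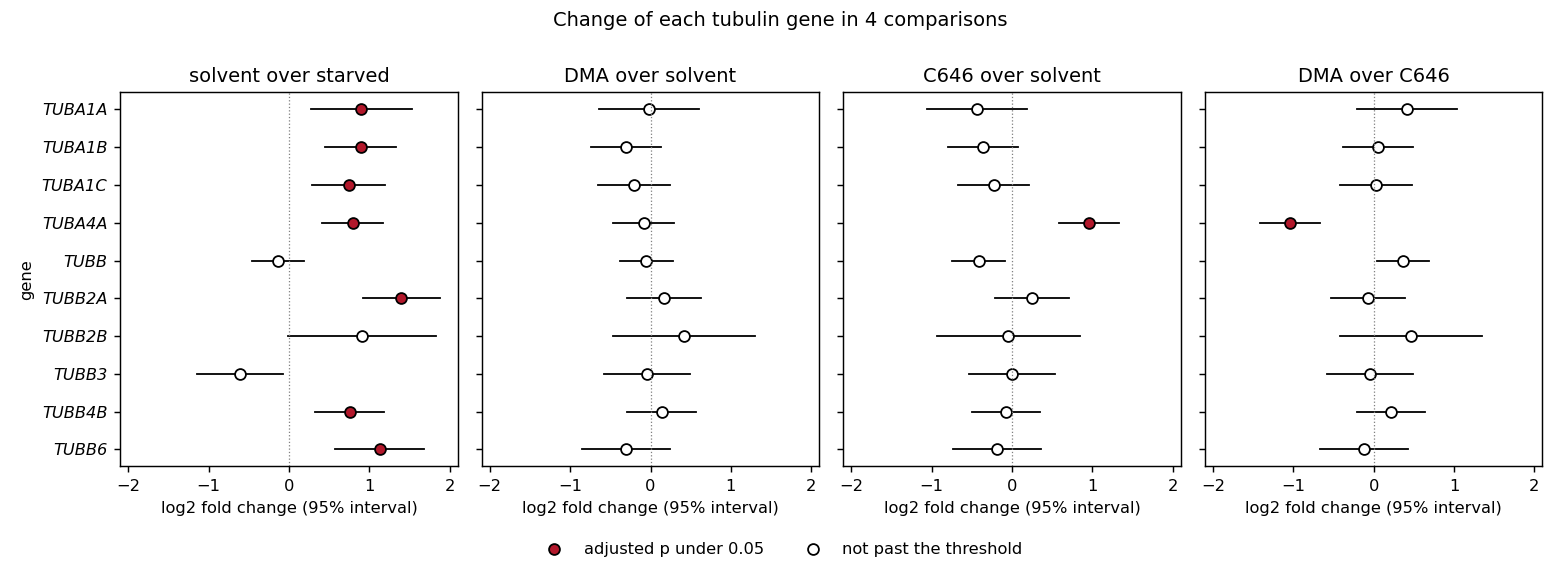
Log2 fold change (horizontal axes) with its 95% interval for each of the 10 tubulin genes in 4 comparisons, with filled points where the adjusted p was under 0.05. For solvent over starved 7 genes are filled, from 0.74 for TUBA1C to 1.39 for TUBB2A. For DMA over solvent none is, and TUBA4A alone is filled for C646 over solvent (0.96) and for DMA over C646 (-1.04).

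No change in the 10 genes was detected with DMA, the inhibitor of sodium-proton exchange. With DMA, none of the 10 passed the threshold against solvent, where 1.75% of all genes did (1.02% of those tested lower), and none had an unadjusted p under 0.05. DESeq2 called none either. For each of the 10 genes the DMA and solvent libraries overlapped, where 23.2% of all genes had no overlap. The log2 fold changes ran from -0.30 for TUBA1B and TUBB6 to 0.42 for TUBB2B. Spike-in scaling moved the median of all genes to 0.22 and called none of the 10, with 85 of 91 genes called higher, beside 112 of 267 with TMM.

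TUBA1B measured 1107, 659.9 and 763 CPM in DMA libraries, against 1362, 816 and 944 CPM in solvent libraries. The DMA library was the lower of the pair at each library number, but the ranges overlapped widely. On the log2 scale the difference was -0.30 ± 0.20 (SE), with a 95% interval of -0.74 to 0.13. TUBB had 1782, 1408 and 1615 CPM in the DMA group, against 1861, 1451 and 1664 CPM in the solvent group. These ranges nearly coincided, and the 95% interval of the difference was -0.38 to 0.28. TUBA4A stood at 21.05, 19.7 and 22.1 CPM in DMA cells, against 25.9, 21.3 and 19.5 CPM in solvent cells, with an interval of -0.46 to 0.29. A doubling or a halving lay outside all 3 of these intervals.

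For the remaining genes the intervals for DMA over solvent were -0.64 to 0.61 for TUBA1A, -0.65 to 0.24 for TUBA1C, -0.29 to 0.63 for TUBB2A, -0.29 to 0.57 for TUBB4B, -0.85 to 0.24 for TUBB6 and -0.58 to 0.49 for TUBB3. TUBB2B, the least counted gene, had an interval of -0.47 to 1.30. Changes inside these intervals are not excluded by these data.

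C646 gave 1 call, TUBA4A. It measured 54.3, 34.96 and 40.2 CPM in C646 libraries, against 25.9, 21.3 and 19.5 CPM in solvent libraries. Every C646 library lay above every solvent library, with library 1 the highest of both groups. This gave a log2 fold change of 0.96 ± 0.17 (SE; adjusted p = 0.0226), a 1.94-fold higher level. Of all genes, 1.21% passed in this comparison, 0.812% of those tested higher and 0.4% lower.

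The rise of TUBA4A was close to the threshold. Its log2 fold change was 1.08 without solvent library 1 (adjusted p = 0.0545), 0.92 without solvent library 2 (adjusted p = 0.0654), 0.87 without solvent library 3 (adjusted p = 0.0607) and 0.75 without C646 library 1 (adjusted p = 0.094). It was 1.07 with spike-in scaling (adjusted p = 0.193), where 84 of 100 genes called were higher, beside 124 of 185 with TMM, and the median of all genes moved to 0.13. Fitted on the C646 and solvent libraries alone it was 0.94 (adjusted p = 0.0798), where 71 of 14566 genes passed. With the library number as a block it was 0.95 (adjusted p = 0.0039), where 1199 of all 15263 genes passed. The fits above that left out 1 library called 24, 96, 135 and 35 of all genes in the order given, beside 185 with all libraries.

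TUBA4A counts were spread over several transcripts. Coding transcripts held 49.5% to 76.4% of them, depending on the library, and TUBA4A-210, annotated as a processed transcript without a coding sequence, held 23.1% ± 6.11 in C646 libraries and 34.0% ± 11.9 in solvent libraries (SD, n = 3 each). With only coding transcripts summed, the log2 fold change of C646 over solvent was 1.15 (adjusted p = 0.0202). The annotated overlaps of TUBA4A, STK16 and TUBA4B on the opposite strand, cover 18.1% of its exon bases.

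TUBB showed the opposite order. It measured 1197, 1237 and 1296 CPM in C646 libraries, against 1861, 1451 and 1664 CPM in solvent libraries. The groups did not overlap, and the C646 libraries lay closest together of the 4 groups. The fitted log2 fold change was -0.42 ± 0.15 (SE), with an unadjusted p of 0.0167 and an adjusted p of 0.187, which does not pass. Groups without overlap were found for 21.8% of all genes in this comparison, and for TUBA4A and TUBB among the 10.

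The other 8 genes overlapped between C646 and solvent libraries. TUBA1A measured 222, 149 and 148 CPM in C646 libraries and 315, 194 and 192 CPM in solvent libraries, with a log2 fold change of -0.43 and a 95% interval of -1.06 to 0.19. TUBA1B measured 884, 730.3 and 820.1 CPM in C646 libraries, inside or below the solvent range of 816 to 1362 CPM, with a log2 fold change of -0.36 and an interval of -0.80 to 0.08. TUBB3 was at 88.8, 103 and 107 CPM in C646 libraries, within the solvent range of 70.6 to 142 CPM, and its interval was -0.53 to 0.54. The log2 fold changes of the remaining 5 genes lay between -0.23 for TUBA1C and 0.25 for TUBB2A.

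Set directly against each other, the inhibitors differed in the same gene. TUBA4A measured 21.05, 19.7 and 22.1 CPM in DMA libraries, against 54.3, 34.96 and 40.2 CPM in C646 libraries. The DMA libraries were tightly grouped and all lay below the C646 libraries. The log2 fold change of DMA over C646 was -1.04 ± 0.17 (SE; adjusted p = 0.0079), and 2.89% of all genes passed in this comparison, 1.95% of those tested lower.

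Each fit that left out 1 library kept that call, with adjusted p from 0.00817 to 0.0402, and spike-in scaling did not (-0.90, adjusted p = 0.444). There, 53 of 120 genes called were higher, beside 144 of 441 with TMM. TUBB showed no overlap here, as did 21.6% of all genes, with 1782, 1408 and 1615 CPM in DMA libraries and 1197, 1237 and 1296 CPM in C646 libraries. Its log2 fold change was 0.37 ± 0.15 (SE; adjusted p = 0.232), which does not pass. The compounds are not structural analogs and were given at different doses, so the comparison is between treatments.

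Both inhibitor groups can also be set against starvation, a contrast that combines refeeding and inhibitor and uses the same starved libraries as the solvent comparison. With DMA, 7 of 10 genes were higher than in starved cells and none was lower, where 26.9% of all genes passed, 13.9% of those tested higher. The 7 include TUBB2B, whose counts were all assigned to the non-coding transcript TUBB2B-202 and do not measure its coding mRNA. TUBB2A had a log2 fold change of 1.57 (adjusted p = 0.00033), TUBB4B of 0.89 (0.0055), TUBA4A of 0.70 (0.0103) and TUBB2B of 1.33 (0.0356). TUBB6 followed with 0.83 (0.0300), TUBA1A with 0.88 (0.0399) and TUBA1B with 0.59 (0.0478), the values in parentheses being adjusted p.

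TUBB6 had 194, 83.3 and 123 CPM in the DMA group, against 83.7, 65.1 and 76.9 CPM in starved libraries. DMA library 2 lay just below the highest starved library, and DMA library 1 far above it. TUBB4B had 379, 214 and 277 CPM in the DMA group, against 178, 141 and 149 CPM in starved libraries, without overlap. TUBA1C had a log2 fold change of 0.54 (adjusted p = 0.0724), TUBB of -0.19 (adjusted p = 0.398) and TUBB3 of -0.65 (adjusted p = 0.0682).

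With the library number as a block, which groups libraries of the same number, 9 genes passed for DMA over starved. So did 5914 of all 15263 genes, beside 4109 without the block. TUBA1C was then higher (adjusted p = 0.00335) and TUBB3 lower (adjusted p = 0.00848). The count without DMA library 1 was 3, and 4 without starved library 1, 2 or 3 or without DMA library 3, and 8 without DMA library 2, where TUBA1C passed (0.73, adjusted p = 0.0205). Over all genes these fits called 3009 to 3480, beside 4109 with all libraries. Without starved library 1, 2 or 3 or DMA library 1 or 3, TUBA1B had an adjusted p of 0.0659 to 0.231 and TUBB6 of 0.0507 to 0.145. TUBA1A had one of 0.0663 to 0.176 without starved library 1 or 2 or DMA library 1 or 3, and TUBB2B one of 0.0795 to 0.146 without starved library 1 or 3 or DMA library 1 or 3. TUBB3 passed as lower without starved library 1 (-0.82, adjusted p = 0.0434) and without DMA library 3 (-0.88, adjusted p = 0.0355). It also passed with DESeq2 (-0.66, adjusted p = 0.0357), which called 4749 of 15263 genes. On the DMA and starved libraries alone it passed too (-0.65, adjusted p = 0.0392), as did 3734 of 14343 genes. With spike-in scaling the median of all genes moved to 0.81, and 6439 of 6574 genes called were higher, beside 2126 of 4109 with TMM. TUBB2A, TUBB4B and TUBA4A passed in all 6 fits that left out 1 library.

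With C646, 4 genes were higher than in starved cells and 1 was lower, where 24.6% of all genes passed, 12.9% of those tested higher and 11.7% lower. TUBA4A had the largest change, with 54.3, 34.96 and 40.2 CPM in C646 libraries and 11.7, 12.4 and 14.5 CPM in starved libraries. The lowest C646 library was more than 2 times the highest starved one. Its log2 fold change was 1.75 ± 0.18 (SE; adjusted p = 3.1e-05), a 3.36-fold higher level.

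TUBB2A measured 40.9, 27.2 and 29.2 CPM in C646 libraries and 9.82, 9.42 and 12.05 CPM in starved libraries. Its log2 fold change was 1.64 ± 0.22 (SE; adjusted p = 0.00025). TUBB6 at 0.95 ± 0.26 (adjusted p = 0.0177) and TUBB4B at 0.68 ± 0.20 (adjusted p = 0.0253) were higher as well. TUBB was the 1 gene that fell, to 1197, 1237 and 1296 CPM in C646 libraries, against 1397, 2026 and 2043 CPM in starved libraries. Its groups did not overlap, and starved library 1 lay nearest to the C646 libraries. The log2 fold change of TUBB was -0.55 ± 0.15 (SE; adjusted p = 0.0186).

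The call for TUBB changed with the scaling and with single libraries. With spike-in scaling, where the median of all genes moved to 0.73 and 5096 of 5220 genes called were higher, beside 1968 of 3750 with TMM, its log2 fold change was 0.13 (adjusted p = 0.777). It was -0.47 without starved library 2 (adjusted p = 0.0754), -0.47 without starved library 3 (adjusted p = 0.065), -0.52 without C646 library 1 (adjusted p = 0.0661) and -0.55 without C646 library 2 (adjusted p = 0.0548). TUBB4B did not pass without starved library 2 (0.61, adjusted p = 0.0937), starved library 3 (0.64, adjusted p = 0.0718) or C646 library 1 (0.51, adjusted p = 0.115), nor TUBB6 without starved library 2 (0.85, adjusted p = 0.0724) or C646 library 1 (0.76, adjusted p = 0.0759).

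The TUBA1 genes did not pass for C646 over starved: the log2 fold change was 0.47 for TUBA1A (adjusted p = 0.27), 0.53 for TUBA1B (adjusted p = 0.0736) and 0.51 for TUBA1C (adjusted p = 0.0903). With the library number as a block, 8 genes passed, where 5531 of all 15263 genes did, beside 3750 without it. Among the 8 were TUBA1B (adjusted p = 0.0156) and TUBA1C (adjusted p = 0.0040) as higher and TUBB3 (adjusted p = 0.0155) as lower. The count was 2 without starved library 2, 2 without C646 library 1 and 3 without starved library 3, with TUBA4A and TUBB2A called in all 3 fits. Over all genes these fits called 2514, 2516 and 3081, beside 3750 with all libraries.

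Levels can be compared between genes only per length, for which the deposited TPM (transcripts-per-million) were summed per gene. In the DMA group TUBB had 811 ± 97.2 TPM, TUBA1B 785 ± 249 TPM and TUBA1C 682 ± 179 TPM (SD, n = 3), and these overlapped. In the C646 group TUBA1B had 755 ± 63.6 TPM, TUBA1C 679.8 ± 109 TPM and TUBB 641 ± 28.8 TPM, and no library of TUBB reached the lowest of TUBA1B. Below the top 3, both groups had by mean TPM the order TUBB4B, TUBA1A, TUBB6, TUBB3, TUBA4A, TUBB2A and TUBB2B.

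In solvent cells TUBA1B had 951 ± 276 TPM, TUBB 843 ± 124 TPM and TUBA1C 795 ± 164 TPM, and these 3 did not differ beyond their spread. TUBB4B with 255.01 ± 33.2 and TUBA1A with 219 ± 73.3 TPM overlapped each other, and TUBB6 had 141 ± 19.9 TPM. TUBB3 was the seventh gene with 108 ± 28.6 TPM, and its libraries overlapped those of TUBB6. TUBA4A with 35.01 ± 8.78, TUBB2A with 28.9 ± 2.64 and TUBB2B with 1.75 ± 0.733 TPM closed the order.

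In starved cells TUBB led with 905 ± 163 TPM, above TUBA1B with 507 ± 19.2 TPM and TUBA1C with 465 ± 59.4 TPM in every library. TUBB3, with 157 ± 30.8 TPM, was the fourth gene here. TUBB4B with 146 ± 23.4 and TUBA1A with 114 ± 24.5 TPM came next, and each overlapped its neighbour. TUBB6 had 66.8 ± 9.59 TPM, TUBA4A 18.8 ± 2.21, TUBB2A 10.8 ± 0.956 and TUBB2B 0.892 ± 0.286 TPM.

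TUBA4A ranked eighth by mean TPM in all 4 groups, though nearly level with TUBB2A (31.8 ± 8.37 TPM) in the DMA group. It stood at 31.9 ± 1.86 TPM in the DMA group, 72.1 ± 15.6 TPM in the C646 group, 35.01 ± 8.78 TPM in the solvent group and 18.8 ± 2.21 TPM in the starved group (SD, n = 3 each). Its C646 libraries, from 59.4 TPM, lay above all others.

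**Figure D4:**
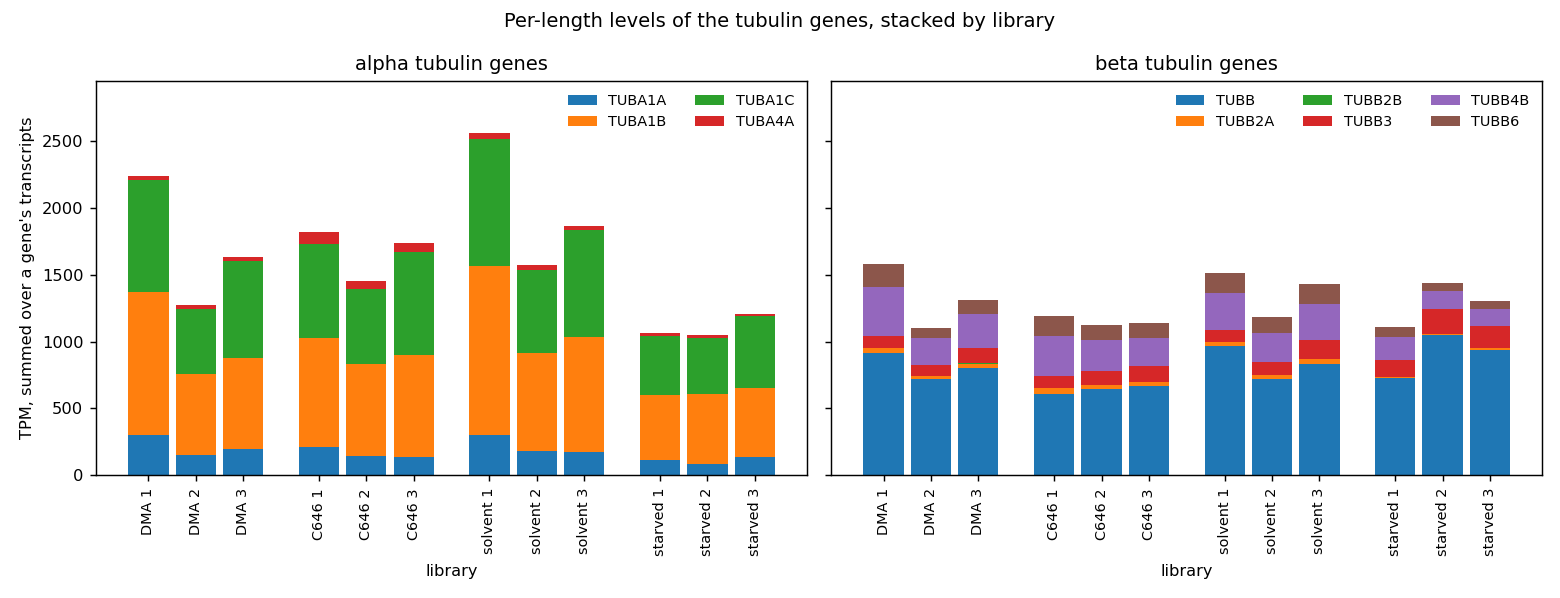
TPM summed over each gene's transcripts (vertical axis, from 0), stacked for the 4 alpha genes (left) and the 6 beta genes (right) in each of the 12 libraries. The alpha stacks reach 1572 to 2564 TPM in solvent libraries and 1046 to 1209 TPM in starved libraries, while the beta stacks of these groups overlap at 1183 to 1517 TPM and 1111 to 1438 TPM.

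Summed per length, the 4 alpha genes had 1715 ± 486 TPM in DMA, 1669 ± 194 in C646, 2001 ± 510 in solvent and 1105 ± 90.2 TPM in starved cells (SD, n = 3 each). Each refed library was above all starved ones. The 6 beta genes summed to 1332 ± 241 TPM in DMA, 1151 ± 34.9 in C646, 1377 ± 173 in solvent and 1285 ± 164 TPM in starved cells, and these ranges overlapped.

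The ratio of alpha to beta mRNA was 1.41, 1.16 and 1.25 in DMA libraries, 1.53, 1.29 and 1.53 in C646 libraries, 1.69, 1.33 and 1.30 in solvent libraries and 0.955, 0.727 and 0.925 in starved libraries. By these sums, alpha exceeded beta in every refed library and stood below beta in every starved library. A ratio within a library does not depend on its scaling. It compares sums of deposited TPM, so TUBA1C transcripts with a retained intron are included. TUBA1C-203 of that kind held 33.7% to 45.0% of the counts of TUBA1C. The ratio was not computed without it. In DMA library 2, alpha summed to 1276 TPM, with 486 TPM from TUBA1C, and beta to 1104 TPM. TUBA1C-203 held at least 36.7% of TUBA1C counts in DMA libraries, and it is shorter (1105 bases) than TUBA1C-202 (1695 bases). Alpha above beta in that library therefore depends on including TUBA1C-203.

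Within the beta family the make-up differed with refeeding. TUBB gave 61.3% ± 3.77 of beta TPM in DMA, 55.7% ± 4.00 in C646, 61.2% ± 2.85 in solvent and 70.0% ± 4.04 in starved libraries (SD, n = 3 each). TUBB3 gave 7.09% ± 1.49, 9.21% ± 1.40, 7.89% ± 2.05 and 12.1% ± 0.918 in the same groups. Both shares were highest in starved cells, where each starved library exceeded every refed library.

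TUBB4B made up 20.4% ± 2.42 of beta TPM in DMA, 20.9% ± 3.31 in C646, 18.5% ± 0.338 in solvent and 11.6% ± 3.39 in starved libraries. The share of TUBB6 was 8.61% ± 2.18 in DMA, 10.998% ± 1.57 in C646, 10.2% ± 0.343 in solvent and 5.32% ± 1.48 in starved libraries, and that of TUBB2A was 2.37% ± 0.361, 2.98% ± 0.494, 2.12% ± 0.250 and 0.851% ± 0.129 in the same order. These 3 genes took lower shares in starved cells, with 1 overlap, between DMA library 2 (6.91%) and starved library 1 (7.001%) for TUBB6.

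Within the alpha family, TUBA1B and TUBA1C held similar shares in all groups. TUBA1B held 45.6% of alpha TPM in DMA, 45.4% in C646, 47.3% in solvent and 46.1% in starved libraries. TUBA1C held 40.0%, 40.6%, 40.1% and 42.0% in the same groups, and for both genes the libraries of all groups overlapped. TUBA1A held 12.4% ± 0.953 in DMA, 9.70% ± 1.78 in C646, 10.9% ± 1.28 in solvent and 10.3% ± 1.60 in starved libraries (SD, n = 3 each). Its share in each DMA library, from 11.8%, lay above all C646 and starved libraries, which reached 11.5% and 11.3%, and overlapped the solvent libraries. TUBA4A held 1.98% ± 0.653 in DMA, 4.30% ± 0.554 in C646, 1.77% ± 0.337 in solvent and 1.70% ± 0.165 in starved libraries. Its share in each C646 library, from 3.87%, exceeded that in every other library, the highest of which was 2.66%.

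Across the 12 libraries, genes of the 2 families moved alike in part. As a description, Pearson's r of log2 CPM was 0.92 for TUBA1B with TUBA1C, 0.89 for TUBA1A with TUBA1B and 0.92 for TUBB4B with TUBB6. TUBB had r between 0.03 and 0.07 with the TUBA1 genes, 0.46 with TUBB3 and -0.66 with TUBA4A. These points share libraries, scaling and, for the TUBA1 genes, sequence, and they fall into 4 groups.

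Library 1 was the highest of its group for TUBA1A and TUBA1B in all 3 refed groups, and for TUBB4B and TUBB6 as well, with TUBB4B in solvent libraries at 284 and 283 CPM nearly equal. Its part in the results was measured only by leaving it out. Among genes with a mean of at least 10 CPM, 9484 in all, the 4 whose levels were most like the summed CPM of the 10 genes were ATRIP (r = 0.904), OSTF1 (0.876), SLC26A4 (0.875) and CHRDL1 (0.875).

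Proteins that fold, modify and bind tubulin were counted on lists of known genes. CCT is the ring-shaped chaperonin that folds tubulin and actin. Of its 8 subunit genes, 6 were higher in solvent than in starved cells and none was lower, where 12.6% of all genes were higher, and the median log2 fold change was 0.71. TCP1 measured 421, 432 and 369.9 CPM in solvent libraries and 167, 201 and 225 CPM in starved libraries. Its groups were far apart, and its log2 fold change was 1.04 ± 0.13 (SE; adjusted p = 0.00016). CCT5 had 460.2 ± 51.8 CPM in solvent and 265 ± 11.2 CPM in starved cells (SD, n = 3 each), with a log2 fold change of 0.80 (adjusted p = 0.00016).

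In DMA cells 5 CCT genes were higher than in starved cells, where 13.9% of all genes were, and in C646 cells 7, where 12.9% of all genes were. The same starved libraries enter both counts. For DMA over starved the count was 3 without starved library 1, 3 without DMA library 2 and 8 with spike-in scaling. Of all genes, 1573 of 15663, 1690 of 15626 and 6439 of 15263 were higher in these fits, in this order. None of the 8 passed for DMA over solvent, where 4 had an unadjusted p under 0.05. DESeq2 called 2 of the 8 there, and 1096 of all 15263 genes. With the library number as a block, 2 of the 8 passed as lower in DMA than in solvent cells. That fit called 1560 of all 15263 genes in either direction. None passed for C646 over solvent either, where 0 had an unadjusted p under 0.05 and DESeq2 called 0. The level of TCP1 was 319 ± 44.4 CPM in DMA, 424 ± 20.0 in C646, 408 ± 33.01 in solvent and 198 ± 29.1 CPM in starved cells.

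The tubulin cofactors and prefoldin, which bind unfolded or partly folded chains, gave 3 calls of 13, near the 24.3% of all genes: 2 genes were higher in solvent than in starved cells, PFDN1 at 0.44 (adjusted p = 0.0099) and PFDN6 at 0.46 (adjusted p = 0.0116), and PFDN4 was lower at -0.67 (adjusted p = 0.0067). Without starved library 2 the first 2 did not pass (PFDN1 at 0.36, adjusted p = 0.0549, and PFDN6 at 0.41, adjusted p = 0.0567), and PFDN6 did not pass without solvent library 2 (0.38, adjusted p = 0.0565). Of the 3 autoregulation genes, CNOT11 was higher in solvent than in starved cells, at 80.8 ± 3.14 against 56.3 ± 6.93 CPM (log2 fold change 0.52, adjusted p = 0.0070). TTC5, at -0.02 (adjusted p = 0.936), and SCAPER, at -0.74 (adjusted p = 0.0605), did not pass. For DMA over starved, TTC5, at -0.53 (adjusted p = 0.0353), and SCAPER, at -1.06 (adjusted p = 0.0116), passed as lower, where 13% of all genes did. They are named after their values were seen, and 1 of them passed without starved library 2 or 3 or DMA library 2 or 3, and none as lower with spike-in scaling. For C646 over starved, SCAPER passed as lower (-0.82, adjusted p = 0.0409), and none did without starved library 1 or 2 or C646 library 2 or 3. For DMA over solvent none passed, 2 had an unadjusted p under 0.05, and 1 passed as lower with the library number as a block and 1 without DMA library 1. The block called 1560 of all 15263 genes there, and the fit without DMA library 1 called 286 of 15699.

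Of 17 tested genes for enzymes that modify tubulin, 1 was higher and 3 were lower in solvent than in starved cells, near the 24.3% of all genes called. TTL, which restores the last tyrosine of alpha-tubulin, was higher (0.47, adjusted p = 0.0101). TTLL7, which adds glutamate chains to beta-tubulin, and HDAC6, the tubulin deacetylase, were lower (-0.86, adjusted p = 0.0051, and -0.92, adjusted p = 0.0072). With spike-in scaling neither passed, at -0.23 (adjusted p = 0.647) and -0.28 (adjusted p = 0.565), nor did PFDN4, at -0.08 (adjusted p = 0.878). Of 11 genes of the gamma-tubulin ring complex, which nucleates microtubules, TUBG2 was lower (-0.49, adjusted p = 0.0463), where 11.7% of all genes were. It did not pass without starved library 2 (-0.45, adjusted p = 0.143), starved library 3 (-0.42, adjusted p = 0.123), solvent library 1 (-0.38, adjusted p = 0.159) or solvent library 3 (-0.49, adjusted p = 0.0994), and with spike-in scaling its sign turned (0.12, adjusted p = 0.821). TUBG2 is a near copy of TUBG1, so its counts may be uncertain, but the sequence they share was not measured here.

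In DMA cells TUBGCP5 of that complex was lower than in solvent cells, where 1.02% of all genes were, at 10.5 ± 1.115 against 20.3 ± 4.14 CPM (log2 fold change -0.95, adjusted p = 0.0310). It did not pass without solvent library 1 (-0.77, adjusted p = 0.14), solvent library 2 (-1.03, adjusted p = 0.0578), DMA library 2 (-0.88, adjusted p = 0.144) or DMA library 3 (-0.95, adjusted p = 0.0739). It did not pass either with spike-in scaling (-0.69, adjusted p = 0.668), length offsets (-0.67, adjusted p = 0.149), coding transcripts only (-0.94, adjusted p = 0.0576) or the DMA and solvent libraries alone (-0.95, adjusted p = 0.0809). With the library number as a block, 2 of the 11 genes were lower, where 1560 of all 15263 genes passed in either direction. Without the block no other ring complex gene passed in that comparison, and none passed for C646 over solvent. There, 2 of 11 had an unadjusted p under 0.05, DESeq2 called 1 and the block gave 1 as lower. Over all 15263 genes, DESeq2 called 891 for C646 over solvent and the block 1199.

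**Figure D5:**
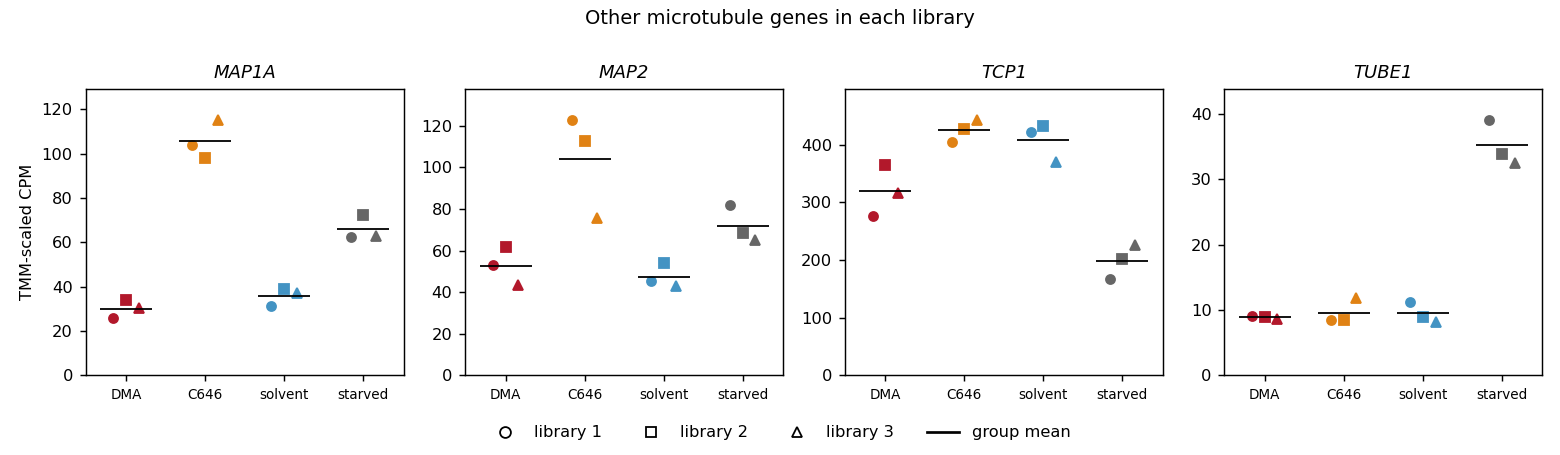
TMM-scaled CPM (vertical axes, each from 0) of MAP1A, MAP2, TCP1 and TUBE1 in each library, by group, with symbols for library numbers and a bar at the group mean (n = 3). MAP1A and MAP2 are highest in C646 libraries, at means of 106 and 104 CPM, TCP1 is lowest in starved libraries, and TUBE1 is highest there at a mean of 35.2 CPM.

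Among genes for microtubule-binding proteins, MAP1A and MAP2 were higher with C646. MAP1A, which stabilises microtubules chiefly in neurons, measured 104, 97.9 and 115 CPM in C646 libraries, against 31.5, 39.1 and 37.1 CPM in solvent libraries. All C646 libraries were more than 2 times every solvent library. The estimated log2 change was 1.56 ± 0.13 (SE; adjusted p = 0.00030). MAP2, another neuronal microtubule protein, measured 123, 113 and 75.6 CPM in C646 libraries and 45.4, 53.8 and 42.8 CPM in solvent libraries. Its log2 fold change was 1.13 ± 0.18 (SE; adjusted p = 0.0134), and it was 1.10 without solvent library 1 (adjusted p = 0.0767) and 0.99 without C646 library 1 (adjusted p = 0.0604). With spike-in scaling MAP2 had 1.20 (adjusted p = 0.0535).

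These were the 2 genes called of 21 tested on that list for C646 over solvent, where 1.21% of all genes passed. With the library number as a block 4 were higher and 1 was lower, where 1199 of all 15263 genes passed. The neuronal markers summed to 2.15 to 3.10 CPM in C646 libraries and 2.78 to 5.42 CPM in solvent libraries, and STMN2 was at 0 in both. For DMA over C646, 3 of the 21 were lower, where 1.95% of all genes were. MAP1A was at -1.81 (adjusted p = 5.1e-05) and MAP2 at -0.98 (adjusted p = 0.0143). MAP2 did not pass there without DMA library 3 (-0.86, adjusted p = 0.0578), C646 library 1 (-0.84, adjusted p = 0.0604) or C646 library 2 (-0.91, adjusted p = 0.0517), nor with spike-in scaling (-0.86, adjusted p = 0.435) or on the DMA and C646 libraries alone (-0.98, adjusted p = 0.0657). The count of the list was 1 without DMA library 3, 1 without C646 library 2, 1 with spike-in scaling and 5 with the block. The block called 1498 of all 15263 genes there and spike-in scaling 120. The fit without DMA library 3 called 180 of 15638 genes, and that without C646 library 2 called 218 of 15588.

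In solvent cells 1 of the 21 was higher than in starved cells and 5 were lower, near the 24.3% of all genes called, and with spike-in scaling 2 were higher and none was lower. MAPRE1, the end-binding protein EB1, was higher, at 164 ± 18.8 against 103 ± 7.03 CPM (log2 fold change 0.67, adjusted p = 0.0011). CLIP1, which tracks growing microtubule ends, was lower, at 106 ± 1.66 against 173 ± 3.83 CPM (-0.71, adjusted p = 0.00020), and so was MAP1A, at 35.9 ± 3.92 against 65.9 ± 5.47 CPM (-0.88, adjusted p = 0.00048). With spike-in scaling CLIP1, at -0.11 (adjusted p = 0.824), and MAP1A, at -0.26 (adjusted p = 0.583), did not pass.

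Of 10 further tubulin genes, 3 were tested. TUBE1, the epsilon-tubulin of centrioles, measured 11.3, 8.96 and 8.24 CPM in solvent libraries and 39.2, 33.9 and 32.6 CPM in starved libraries. The groups were far apart, and the refed groups with DMA and C646 lay at the solvent level, from 8.43 to 11.8 CPM. The log2 fold change was -1.89 ± 0.18 (SE; adjusted p = 2.3e-05), and -1.33 with spike-in scaling (adjusted p = 0.0057). TUBA8 measured 0.704 to 2.21 CPM and TUBD1 1.41 to 2.94 CPM over all libraries, and neither passed in any comparison. TUBA3C and TUBA3D were at 0 in every library.

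As the gene with the largest fold change on refeeding, TUBB2A is shown with the 250 bases before its RefSeq start (GRCh38.p14, chr6:3157545-3157794, minus strand, from RefSeq), with matches to the motifs searched in capitals.
TUBB2A upstream: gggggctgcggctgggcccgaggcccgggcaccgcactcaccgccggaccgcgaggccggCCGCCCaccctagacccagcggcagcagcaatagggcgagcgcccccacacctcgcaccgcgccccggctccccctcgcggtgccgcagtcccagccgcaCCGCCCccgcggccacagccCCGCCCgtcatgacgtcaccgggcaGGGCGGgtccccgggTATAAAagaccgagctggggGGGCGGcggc
GGGCGG occurred here 5 times, counting both strands, and TATAAA 1 time. Over 15 such windows of the 10 genes, GGGCGG occurred in 9 and CCAAT in 9. GAANNTTC occurred in 2, CACGTG in 2 and TATAAA in 1. Of 35116 promoters of the same length, 42.6% held GGGCGG, 32.0% CCAAT, 5.78% GAANNTTC, 6.34% CACGTG and 10.7% TATAAA on either strand. The windows of 1 gene can overlap, and a match of letters is a description of the sequence only.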

How the data were processed

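Poly-A RNA of 12 RPE-1 libraries was measured after RNeasy extraction and the TruSeq Stranded mRNA kit, per the labels' protocols. Trimmomatic 0.36, STAR 2.7.0e and GRCh38.p10 are named per the submitters' processing notes. Which program quantified the reads, with which annotation and whether by strand, is not given in the sources used. Per the file headers, the authors deposited expected counts, TPM and effective lengths per transcript, 182164 transcripts in each library.

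Expected counts were summed per gene for the 181808 transcripts matched by identifier to GENCODE 29. The 92 spike-in sequences and 264 unmatched transcripts (0.0923% to 0.146% of counts) were left out of tests. Sums were rounded and tested with edgeR 4.0.16 in R 4.3.3: 1 quasi-likelihood fit over all 12 libraries, TMM scaling, a filter of 10 counts (total 15), and Benjamini-Hochberg adjustment over 15263 genes with a threshold of 0.05. All p-values come from this fit unless another tool is named. The same steps, tested on simulated data, recovered 80% of genes changed by 1 log2 unit and 9% of those changed by 0.5 for solvent over starved.

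The members and lists were chosen with earlier results of these data known. From each list, at most 2 genes called in a direction and comparison were named, those with the lowest p. Alternatives were DESeq2 1.42.0 and its size factors, other filters, spike-in scaling, transcript length offsets, coding transcripts only, fits on 2 groups, a block for library number, and leaving out each library. Libraries of the same number deviated together, with own-number correlations of 0.128 to 0.483 in all comparisons except solvent over starved, where the lowest was 0.0957 and the number was not taken as a pairing. Some sequences and 1 gene are not reported here.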

Additional observations from a re-analysis of the deposited data

How the results depend on the processing

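Leaving out each library in turn gave 4 to 7 calls for solvent over starved (7 with all), 0 to 1 for C646 over solvent (1), 3 to 8 for DMA over starved (7) and 2 to 5 for C646 over starved (5). The calls over all genes fell as well. They were 2269 to 3450 for solvent over starved (3704 with all) and 24 to 135 for C646 over solvent (185). Against starved cells they were 3009 to 3480 for DMA (4109) and 2514 to 3221 for C646 (3750). With no filter on low counts 4 genes passed for DMA over starved, where 3657 of all 27631 genes did. In that setting TUBA1A did not pass for solvent over starved (adjusted p = 0.16), nor TUBB6 for C646 over starved (adjusted p = 0.0781). With length offsets, TUBA1B did not pass for DMA over starved (0.61, adjusted p = 0.0557), and TUBB3 passed as lower (-0.77, adjusted p = 0.0193). Fits on only the groups compared gave 0 for C646 over solvent and 8 for C646 over starved, where 71 of 14566 and 3502 of 14516 genes passed. Spike-in scaling gave 0 for C646 over solvent, 0 for DMA over C646 and 8 for C646 over starved. The cause of these moves was not tested. With the library number as a replicate block the count was 8 for C646 over starved and 9 for DMA over starved. For solvent over starved, where the pairing was not taken as given, the block gave 8, the added call being TUBB3 as lower (-0.65, adjusted p = 0.0097), which was lower in solvent at each of the 3 numbers. It changed no call of the 10 genes in the remaining comparisons. Over all genes it called 1560 for DMA over solvent (267 without), 1199 for C646 over solvent (185) and 1498 for DMA over C646 (441). Against starved cells it called 5451 genes for solvent (3704 without), 5914 for DMA (4109) and 5531 for C646 (3750). Every library correlated best with its own number.

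Direction changed with spike-in scaling, where the log2 change was 0.38 for TUBB and 0.12 for TUBG2 in solvent over starved. In DMA over solvent it was 0.24 for TUBA1A, 0.048 for TUBA1C, 0.17 for TUBA4A, 0.19 for TUBB and 0.15 for TUBB3. It was 0.013 for TUBB2B and 0.040 for TUBB4B in C646 over solvent, and 0.047 for TUBB2A and 0.038 for TUBB3 in DMA over C646. TUBB had 0.57 and TUBB3 0.13 in DMA over starved, and TUBB 0.13 and TUBB3 0.095 in C646 over starved. With coding transcripts only, TUBA4A had 0.066 in DMA over solvent. TUBB3 in C646 over solvent had -0.053 with length offsets and -0.0073 in the fit on those groups alone.

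Leaving out single libraries moved the sign only of values near 0. In DMA over solvent the ranges were -0.32 to 0.26 for TUBA1A, -0.17 to 0.037 for TUBA4A, -0.14 to 0.041 for TUBB, -0.26 to 0.31 for TUBB3 and -0.11 to 0.32 for TUBB4B. In C646 over solvent they were -0.30 to 0.36 for TUBB2B, -0.19 to 0.35 for TUBB3 and -0.25 to 0.023 for TUBB4B. In DMA over C646 they were -0.19 to 0.21 for TUBA1B, -0.13 to 0.22 for TUBA1C, -0.21 to 0.14 for TUBB2A, -0.26 to 0.10 for TUBB3, -0.024 to 0.40 for TUBB4B and -0.49 to 0.13 for TUBB6. DESeq2 size factors and the filter of 1 CPM kept the direction and the side of the threshold of all 60 gene values. Depth limits TUBB2B, with 12.7 to 86.2 counts per library. TUBB2B could not be tested with coding transcripts only.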
